A study of Mus musculus with 5 samples.

Results

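Nonclassical monocytes were found among the cells of a sort made for neutrophils, as 1171 of 36720 kept cells. They were chosen by their own RNA: at least 3 unique molecular identifiers (UMIs, 1 per captured mRNA molecule) of Treml4, Ace and Cx3cr1 together and at least 1 of Csf1r. Cells with 5 or more UMIs of Ly6c2, F13a1 and Ccr2, with 3 or more of C1qa, C1qb and C1qc, with 5 or more of Clec4g, Stab2 and Oit3, or with 2 or more of Cd3e, Cd79a and Ncr1 were excluded. The mice were C57BL/6, a common inbred strain, kept at steady state, either young (10 weeks old by the sample labels, 8 weeks old by the design text) or 20 months old. From lung, liver, spleen, intestine, blood and bone marrow, cells negative for the dead-cell dye DAPI and positive for CD11b and Ly6G were sorted. Their whole transcriptomes were captured in microwells by BD Rhapsody, a bead-based single-cell method. The experiment was carried out in 2 rounds, each in its own cartridge, which gave the pools YO1 and YO2. Each pool mixed tissues, ages and an unstated number of animals, and the barcodes analysed here carry the pool only, so members were compared with other cell classes of the same pool, and neither tissues nor ages were compared.

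Nonclassical, or patrolling, monocytes arise from Ly6C-high classical monocytes and crawl along the inner wall of small blood vessels, where they take up particles and watch over the endothelium. Their formation in mice depends on the nuclear receptor NR4A1, with C/EBPβ, and is promoted by Notch signalling. They are held in the circulation through the fractalkine receptor CX3CR1 and, on their way out of the bone marrow, use the sphingosine-1-phosphate receptor S1PR5. Mature monocytes lack Ly6G, the surface antigen of the sort.

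YO1 held 620 members, 3.18% of its 19505 kept cells (exact Clopper-Pearson 95% interval 2.94 to 3.44%). YO2 held 551 members, 3.20% of 17215 kept cells (2.94 to 3.48%). The intervals cover counting error only, and since the cells had been sorted for Ly6G the shares do not give the frequency of monocytes in the tissues. The share moved with the cell filter: among cells of at least 1000 UMIs it was 4.75% in YO1 and 3.53% in YO2. A member had a median of 2418 UMIs in YO1 and 3373 UMIs in YO2, and the summed RNA of the class came to 1653938 UMIs and 2051980 UMIs. The classical monocytes set against them (at least 5 UMIs of Ly6c2, F13a1 and Ccr2 and 1 of Csf1r) numbered 1050 cells of 3744 median UMIs in YO1 and 762 cells of 5122 median UMIs in YO2. Macrophages positive for C1q (191 and 356 cells) and neutrophils (10843 and 8414 cells) were the other classes of the fit. The pools shared 406 cell numbers over all cells and 0 over the members.

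Levels below are CPM, the UMIs of a gene scaled to a common total of UMIs per class and pool, given for YO1 and then YO2. The genes of the rule describe the choice and were not tested. Ace, which encodes angiotensin-converting enzyme, stood at 1685 and 1490 CPM in nonclassical monocytes, against 167 and 151 CPM in classical monocytes. Treml4, a TREM-like receptor of myeloid cells encoded on chromosome 17 (GRCm38 chr17:48264295-48275360, plus strand), stood at 314 and 266 CPM in nonclassical monocytes, against 32.4 and 42.4 CPM in classical monocytes. Cx3cr1 was closer, at 729 and 632 CPM in nonclassical monocytes, against 445 and 492 CPM in classical monocytes. Ace was seen in 95% and 95.5% of members, Cx3cr1 in 78.1% and 77.7%, Treml4 in 52.7% and 57.4%, and all of them at once in 37.9% and 43.0%. The choice thus rested mostly on Ace, and a member held a median of 7 UMIs of the gated trio in each pool.

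Genes of the class that the rule did not use were detected in the members. Cd300e, an activating receptor of the CD300 family, had a UMI in 53.9% and 59.4% of members (median depths 2418 and 3373 UMIs), against 0.101% and 0.0832% of neutrophils (1127 and 1316 UMIs). The neutrophils were gated on at least 10 UMIs of Cxcr2, Csf3r, S100a8 and S100a9 and on 0 UMIs of Treml4, Ace, Cx3cr1 and Csf1r, which can lower the monocyte RNA in them. Among C1q macrophages, whose gate set no limit on Treml4, Ace and Cx3cr1, 3.14% and 3.37% had a UMI of Cd300e (2825 and 4168 UMIs). Adgre4, an adhesion G protein-coupled receptor of monocytes, had a UMI in 77.4% and 83.9% of members, against 0.314% and 0.487% of neutrophils. With each cell thinned to 500 UMIs, which left out 1 member of YO1, Cd300e was seen in 19.4% and 20.3% of members, against 0.0563% and 0.0119% of neutrophils. Of 9 macrophage markers, Vsig4 and Timd4 were at 0 UMIs in members of both pools, while Hmox1, the gene of heme oxygenase 1, stood at 343 and 362 CPM in nonclassical monocytes, against 195 and 156 CPM in classical monocytes. That list summed to 517 and 689 CPM in members, against 512 and 701 CPM in classical monocytes and 2993 and 1873 CPM in C1q macrophages. The neutrophil markers summed to 21775 and 14162 CPM in members, against 165602 and 86686 CPM in neutrophils. Over the lists of markers, the 16 nonclassical genes that the rule did not use summed to 10888 and 10805 CPM in members, against 2583 and 3309 CPM in classical monocytes, 2918 and 2693 CPM in C1q macrophages and 1453 and 2696 CPM in neutrophils.

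The edge of the gate was gradual. Cells with exactly 3 UMIs of Treml4, Ace and Cx3cr1, just inside (78 in YO1, 56 in YO2), had Cd300e at 346 and 157 CPM, while otherwise matching cells with 2 UMIs, just outside (81 and 69 cells), had 146 and 151 CPM. Ace stood at 726 and 344 CPM just inside and at 333 and 240 CPM just outside. On the side of the classical genes, members with 3 or 4 UMIs of Ly6c2, F13a1 and Ccr2 (52 and 47 cells) had Fn1 at 150 and 130 CPM, and cells with 5 or 6 (55 and 25 cells) had 307 and 189 CPM.

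Neutrophil RNA was common in the class, with few cells between those that held little and those that held much. Of the members, 252 of 620 (40.7%, exact interval 36.8 to 44.6%) in YO1 and 279 of 551 (50.6%, 46.4 to 54.9%) in YO2 held 3 or more UMIs of the neutrophil genes Cxcr2, Mmp9, Retnlg, Mmp8 and Stfa2l1. These cells had a median of 64 and 62 UMIs of S100a8 and S100a9, the calprotectin genes, while the other members had 1 and 1. Their median depth was 3104 and 3934 UMIs, against 1955 and 2622 UMIs in the other members. Of classical monocytes, 48.9% and 54.3% held it, and of C1q macrophages 54.97% and 64.3%. Doublets were not removed, and the source of this RNA was not tested. In members with it, Ace stood at 1326 and 1187 CPM and Cd300e at 361 and 290 CPM; in members without it, Ace stood at 2041 and 1936 CPM and Cd300e at 526 and 536 CPM. Il1b, the gene of the cytokine interleukin-1β, was at 5462 and 7525 CPM in members with neutrophil RNA and at 551 and 641 CPM in the others.

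**Figure D1:**
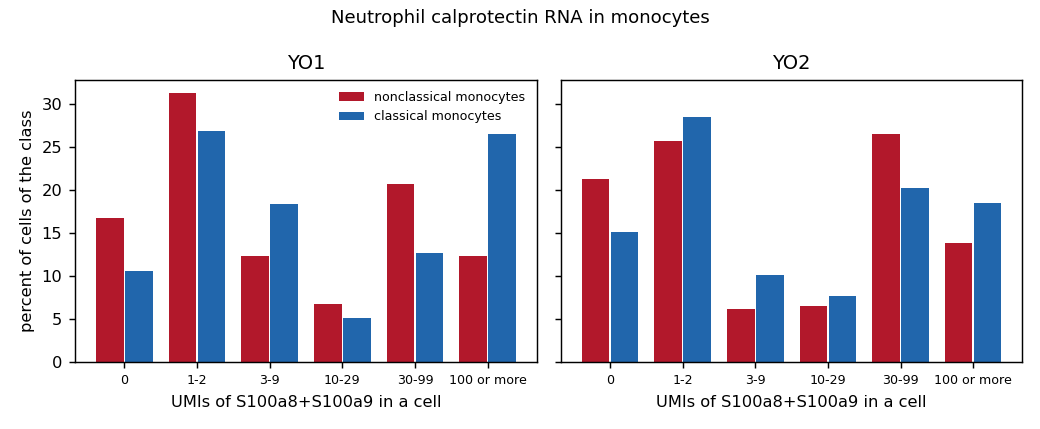
Percent of cells (vertical axis) by UMIs of S100a8 and S100a9 in a cell (horizontal axis, binned) for nonclassical and classical monocytes, 1 panel per pool. Most members have 0 to 2 UMIs or 30 or more, with 6.77% of the YO1 members and 6.53% of the YO2 members at 10 to 29 UMIs.

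The comparison with classical monocytes asked how the transcriptome of nonclassical monocytes differs from that of cells gated as classical monocytes. That gate set no limit on C1q genes. C1qb stood at 293.5 and 769.6 CPM in classical monocytes, against 3.6 and 6.3 CPM in nonclassical monocytes. With the members' other exclusions also applied, 945 and 569 classical monocytes were left, and 324 genes were higher and 361 lower in nonclassical monocytes. Among the genes called higher in nonclassical monocytes were the adhesion genes Itgal and Spn, the egress receptor S1pr5, the immune receptors Cd300e, Fcgr4 and Ceacam1, the lipid carriers and receptors Fabp4 and Cd36 and the survival gene Bcl2. Among those called lower were the matrix genes Fn1 and Vcan, 7 of 10 MHC class II genes and 7 of 19 cytokines and chemokines. Of 10743 genes tested, 321 (2.99%) were higher and 461 (4.29%) lower in nonclassical monocytes, by edgeR's quasi-likelihood test on the UMI sums with the pool as a block and a Benjamini-Hochberg adjusted p under 0.05. All 321 higher genes and 459 of the 461 lower genes had the same direction in both pools, which calling on these same sums favours. Over the 3262 genes of at least 50 CPM the log2 ratios of the pools correlated at r = 0.80 (across genes, which are not independent). Of these more abundant genes, 241 were called higher and 136 lower.

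Both classes were chosen on RNA of the same cells that the test then reads. Genes expressed together with a gate gene therefore move with the gate. Since the pool was a block, the shift between pools that all classes share is taken out before a difference is tested. A p-value compares the difference with the spread left over, that is, how unevenly the classes differ from pool to pool. That spread was estimated over all classes of the fit, from 2 pools of unstated animals. The 20 genes used by any gate were left out of the test. The calls depend on that small design: without YO1 nonclassical monocytes 63 genes were higher and 114 lower, without those of YO2 117 and 165, without YO1 classical monocytes 70 and 202, without those of YO2 54 and 112, and with no pool block 82 and 82. Of the 15 higher genes named below by size, 14 passed in each of these leave-one-out fits, and of the 12 lower ones 5 did (Pf4, Fn1, Fcnb, Gas7 and Mgl2). Of the list genes described below, 17 of 49 called higher and 15 of 68 called lower passed in each of them.

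**Figure D2:**
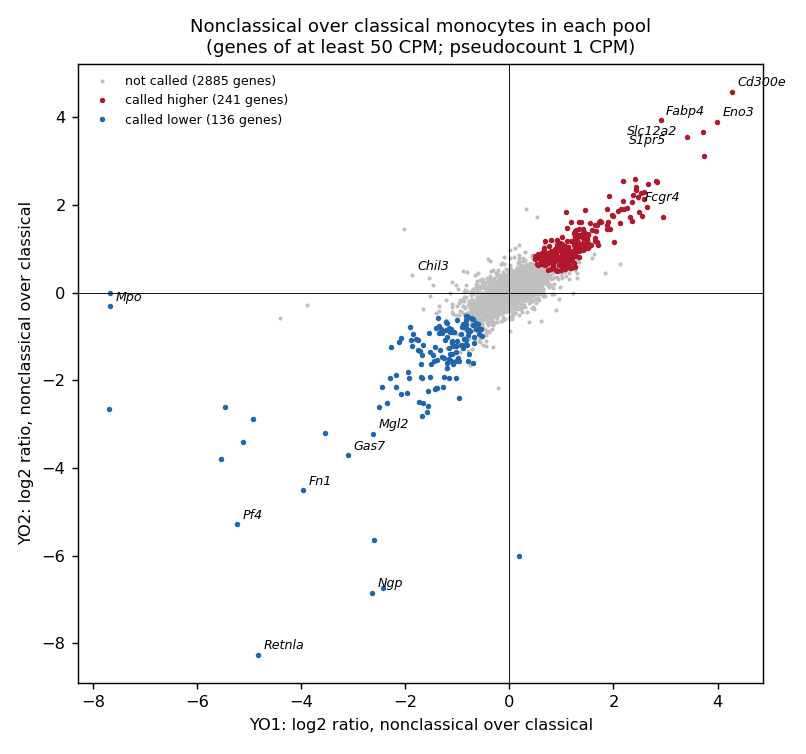
Log2 ratio of CPM, nonclassical over classical monocytes, in YO1 (horizontal axis) and YO2 (vertical axis), 1 point per gene of at least 50 CPM, with called genes in colour. The 241 called higher genes lie at the upper right, led by Cd300e, and nearly all called lower genes at the lower left, with Fn1 low in both pools.

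Cd300e showed the largest change by the naming rule. It stood at 444 and 389 CPM in nonclassical monocytes, against 21.95 and 15.29 CPM in classical monocytes, a log2 change of 4.50 ± 0.20 (SE of the edgeR fit, n = 2 pools, adjusted p = 1.91e-05). Both pools lay far apart between the classes and close within them. Fcgr4, the activating IgG receptor through which mouse nonclassical monocytes act on antibody-coated cells, stood at 857 and 805 CPM in nonclassical monocytes, against 158 and 150 CPM in classical monocytes (log2 2.44 ± 0.21, adjusted p = 0.000523). Fcgr1, the high-affinity IgG receptor of classical monocytes and macrophages, went the other way, at 29.6 and 35.1 CPM in nonclassical monocytes, against 81.9 and 83.7 CPM in classical monocytes (log2 -1.35 ± 0.18, adjusted p = 0.00325 in edgeR). Of the 7 Fc receptor genes tested these were the ones called.

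The start regions of these receptor genes are shown because Cd300e had the largest change and Fcgr4 was the only one of the 11 named higher genes with a window in the RefSeq table that held a PU.1 motif. Each window runs from 250 bases before to 50 after the annotated start, in the gene's direction, from RefSeq on GRCm38.p6. Fcgr4 lies at chr1:171018920-171029761 on the plus strand and Cd300e at chr11:115051917-115062177 on the minus strand. The windows are chr1:171018676-171018975 and chr11:115061990-115062289. Capitals mark the match to GAGGAAGT, a site preferred by PU.1 (Spi1), the master regulator of myeloid cells; here it reads on the opposite strand, from base 227.
Fcgr4: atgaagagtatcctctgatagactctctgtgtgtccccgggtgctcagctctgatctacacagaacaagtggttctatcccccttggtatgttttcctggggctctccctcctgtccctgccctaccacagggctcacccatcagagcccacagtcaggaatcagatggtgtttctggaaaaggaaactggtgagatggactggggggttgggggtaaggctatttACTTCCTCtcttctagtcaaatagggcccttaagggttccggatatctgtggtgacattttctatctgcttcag
Cd300e: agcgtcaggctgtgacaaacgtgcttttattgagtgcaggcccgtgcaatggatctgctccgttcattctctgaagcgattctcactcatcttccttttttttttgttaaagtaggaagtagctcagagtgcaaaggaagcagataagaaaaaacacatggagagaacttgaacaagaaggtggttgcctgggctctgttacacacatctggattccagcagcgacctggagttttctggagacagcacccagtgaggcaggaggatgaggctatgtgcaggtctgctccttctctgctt
The letters were searched on both strands. A PU.1 match was found for 22 of 241 higher genes with a window (9.13%) and for 32 of 348 lower genes (9.195%), against 376 of 8503 tested genes (4.42%) and 1052 of all 32851 windows (3.20%). The motifs AAAGGTCA (the NR4A monomer site), ATGCAAAT (the octamer of POU factors) and TTGCGCAA (C/EBP) had no match in the 11 of 15 named higher genes that had a window. The KLF motif CCACACCC was found for L1cam, and for 15 of 241 higher genes (6.22%), against 388 of 8503 tested genes (4.56%). A match is a description of these letters and not a bound site.

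Among genes of migration, S1pr5 stood at 214 and 212 CPM in nonclassical monocytes, against 19.2 and 17.2 CPM in classical monocytes (log2 3.56 ± 0.30, adjusted p = 0.000489 in edgeR). Of the 15 tested receptors for chemokines and lipid signals it was called higher together with Cxcr4, which retains cells in the marrow (806 and 1026 CPM in nonclassical monocytes, against 387 and 547 CPM in classical monocytes). The 2 lower ones included the anaphylatoxin receptor C3ar1 (2.42 and 2.44 CPM in nonclassical monocytes, against 25.2 and 71.1 CPM in classical monocytes). The list's median log2 change was -0.24, beside -0.05 over all genes tested. S1pr5 and C3ar1 passed with each sum left out.

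Adhesion genes moved in both directions. Of 21 tested, 7 were higher (Itgal, Itgax, Itgb2, Itgb1, Itgav, Pecam1 and Spn) and 3 lower (Itga6, Fn1 and Vcan), with a median of 0.40. Itgal, the LFA-1 integrin chain that patrolling monocytes use to crawl on endothelium, stood at 1787 and 1769 CPM in nonclassical monocytes, against 447 and 524 CPM in classical monocytes (log2 1.89 ± 0.25, adjusted p = 0.00318 in edgeR). Its partner chain Itgb2 was at 1918 and 2076 CPM in nonclassical monocytes, against 949 and 1078 CPM in classical monocytes (log2 0.99). Spn, which encodes the sialomucin CD43, used as a surface marker of these cells, was at 655 and 583 CPM in nonclassical monocytes, against 144 and 98.95 CPM in classical monocytes (log2 2.39 ± 0.30). L1cam, an adhesion molecule best known from neurons, was at 166 and 148 CPM in nonclassical monocytes, against 29.8 and 28.3 CPM in classical monocytes (log2 2.44 ± 0.17, adjusted p = 0.000251 in edgeR). Itgam, the CD11b chain of the sort, was not called (635 and 600 CPM in nonclassical monocytes, against 612 and 529 CPM in classical monocytes). Itgal, Spn and Fn1 passed with each sum left out.

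**Figure D3:**
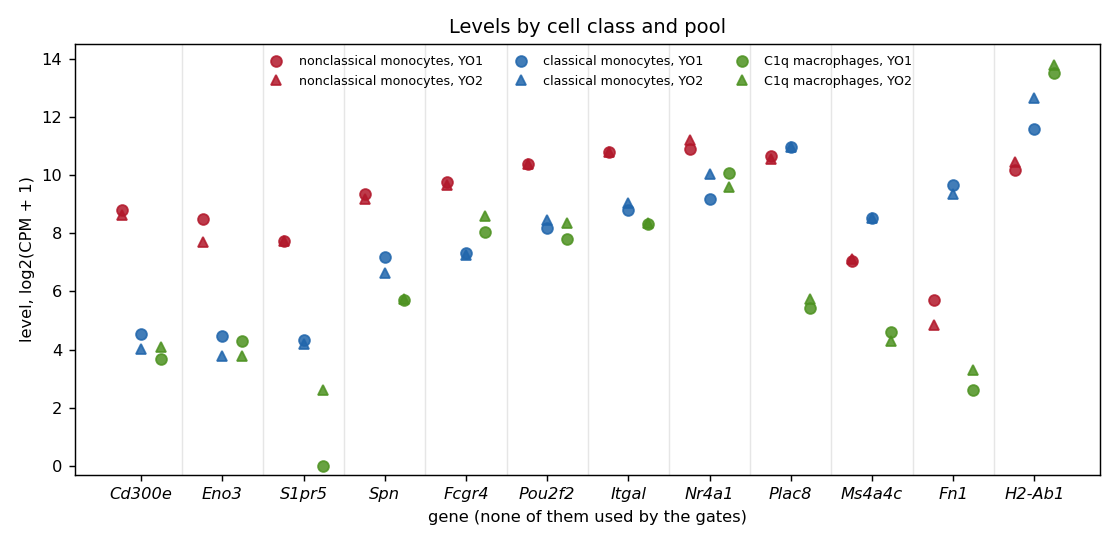
Level of 12 genes that no gate used, as log2(CPM + 1) (vertical axis), in nonclassical monocytes, classical monocytes and C1q macrophages; each class has 1 point per pool (YO1 circles, YO2 triangles). Cd300e, Eno3, S1pr5 and Spn are highest in nonclassical monocytes in both pools, Fn1 is low in nonclassical monocytes against classical monocytes, and H2-Ab1 is lowest in nonclassical monocytes.

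Transcription factors moved in both directions: 9 of 34 tested were higher and 4 lower, with a median of 0.15. Pou2f2, an octamer-binding factor, stood at 1316 and 1326 CPM in nonclassical monocytes, against 286 and 353 CPM in classical monocytes (log2 2.09 ± 0.33, adjusted p = 0.00685 in edgeR). Tcf7l2, the effector of canonical Wnt signalling, was at 171 and 213 CPM in nonclassical monocytes, against 23.5 and 35.5 CPM in classical monocytes (log2 2.73 ± 0.31, adjusted p = 0.00169). Klf4, Runx2, Bcl6, Cebpb, Nfkb1 and Stat3 were also higher, by log2 0.64 to 1.70. Cebpb, needed for these cells to survive, stood at 2756 and 2961 CPM in nonclassical monocytes, against 1176 and 1542 CPM in classical monocytes. The 4 lower ones included the macrophage factor Maf, the dendritic and monocyte factor Irf8 and the granulocyte-monocyte factor Cebpa, by log2 -1.20 to -1.72. Of these 13 factors only Hes1 and Tcf7l2 passed with each sum left out in turn.

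Nr4a1, the factor on which the class depends, was high in nonclassical monocytes but just missed the threshold. It stood at 1888 and 2337 CPM in nonclassical monocytes, against 581 and 1043 CPM in classical monocytes, a log2 change of 1.44 ± 0.38 (adjusted p = 0.0555 in edgeR). The pools did not overlap between the classes, but so few values can lie apart without a class difference. How many of all tested genes lie apart in this way is not given here, so the lack of overlap adds no evidence to the test. Nr4a1 is also an immediate early gene, switched on by handling and digestion of cells, and the part of handling in its level was not tested. Of the 16 immediate early genes tested, 11 had a log2 change above 0. Their median was 0.25, beside -0.05 over all genes tested. Only Dusp2 was called higher (238 and 350 CPM in nonclassical monocytes, against 63.9 and 119 CPM in classical monocytes), and its call did not hold with each sum left out.

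Of 14 tested Notch pathway genes, 2 targets were higher and the DNA-binding partner of Notch, Rbpj, was lower (52.6 and 62.9 CPM in nonclassical monocytes, against 115 and 188 CPM in classical monocytes, log2 -1.37 ± 0.20). The target Hes1, a repressor, stood at 309 and 305 CPM in nonclassical monocytes, against 50.7 and 61.4 CPM in classical monocytes (log2 2.47 ± 0.20, adjusted p = 0.000365 in edgeR). Nrarp, a target that feeds back on Notch, was at 42.3 and 27.3 CPM in nonclassical monocytes, against 3.41 and 1.62 CPM in classical monocytes (log2 3.77 ± 0.57, adjusted p = 0.00608). The receptors were not called: Notch1 stood at 72.0 and 73.6 CPM in nonclassical monocytes, against 108 and 73.9 CPM in classical monocytes, and Notch2 at 251 and 280 CPM in nonclassical monocytes, against 176 and 188 CPM in classical monocytes. The median of the list was 0.10. Of its 3 calls, that of Hes1 held with each sum left out, and those of Nrarp and Rbpj did not.

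Paired and immune receptors were called higher for 8 of 31 tested and lower for 2, with a median of 0.62. Beside Cd300e, these were its relatives Cd300c2 and Cd300ld, Pilra, Pilrb2, Lilra5, Clec4a3 and Ceacam1. Lilra5, an activating leukocyte receptor, was at 160 and 187 CPM in nonclassical monocytes, against 24.7 and 47.0 CPM in classical monocytes (log2 2.33 ± 0.21). Ceacam1, an inhibitory adhesion receptor, was at 403 and 279 CPM in nonclassical monocytes, against 109 and 73.2 CPM in classical monocytes (log2 1.92 ± 0.17). Trem2 and Clec4a2 were lower. Cd300e, Lilra5 and Ceacam1 passed with each sum left out. Pilrb2, and likewise the MHC genes H2-Q6 and H2-Q7 below, have near-identical copies between which reads can be split. Cd274, which encodes the checkpoint ligand PD-L1 and marks vessel-bound nonclassical monocytes in mice, stood at 81.0 and 110 CPM in nonclassical monocytes, against 13.21 and 22.01 CPM in classical monocytes (log2 2.47 ± 0.33, adjusted p = 0.00325 in edgeR).

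Among the sensors of microbial nucleic acid and cell wall, Tlr7, Tlr13 and Nod1 were higher and Tmem173, the STING gene, lower, of 16 tested (median 0.25). Tlr7 stood at 112.5 and 119 CPM in nonclassical monocytes, against 48.8 and 70.0 CPM in classical monocytes (log2 0.997 ± 0.207, adjusted p = 0.0230 in edgeR), and each of the 4 calls was lost in at least 1 of the fits that left out a sum. The receptors for bacterial lipids were close: Tlr2 stood at 82.2 and 102 CPM in nonclassical monocytes and 80.4 and 90.1 CPM in classical monocytes, and Tlr4 at 21.2 and 30.2 CPM in nonclassical monocytes and 24.1 and 24.6 CPM in classical monocytes.

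Lipid handling gave 4 higher genes and 1 lower of 17 tested (median 0.43). Fabp4, a fatty acid carrier, was at 91.3 and 135 CPM in nonclassical monocytes, against 11.3 and 7.88 CPM in classical monocytes (log2 3.57 ± 0.305, adjusted p = 0.000509 in edgeR). Pparg, the nuclear receptor that drives Fabp4 and Cd36, was at 126 and 156 CPM in nonclassical monocytes, against 23.02 and 25.26 CPM in classical monocytes (log2 2.55 ± 0.19, adjusted p = 0.000288). Cd36, the scavenger receptor for oxidised lipoprotein, was at 652 and 588 CPM in nonclassical monocytes, against 83.6 and 176 CPM in classical monocytes (log2 2.32 ± 0.33). Fabp4, Pparg and Cd36 passed with each sum left out. Abcg1, a cholesterol exporter, was also higher and Npc2, which carries cholesterol out of the lysosome, lower. Fabp4, Pparg and Cd36 are also expressed by alveolar macrophages, whose RNA was present in some members: in those without it, Fabp4 stood at 91.9 and 131 CPM and Pparg at 125 and 150 CPM.

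Of 18 survival and death genes only Bcl2 was called higher, at 134 and 94.5 CPM in nonclassical monocytes, against 21.5 and 20.6 CPM in classical monocytes (log2 2.43 ± 0.21, adjusted p = 0.000523 in edgeR). The list's median was 0.29. Mcl1, the other main protector of myeloid cells, stood at 1531 and 1741 CPM in nonclassical monocytes, against 992 and 1387 CPM in classical monocytes, and was not called. Of the 15 tested receptors for growth factors, Tnfrsf1b and Tgfbr1 were called higher.

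The remaining genes of largest change had varied roles. Eno3, the muscle form of the glycolytic enzyme enolase, stood at 355 and 204 CPM in nonclassical monocytes, against 21.3 and 12.7 CPM in classical monocytes (log2 4.03 ± 0.29, adjusted p = 0.000251 in edgeR), and was the only one of 19 glycolysis genes called. Slc12a2, a sodium-potassium-chloride cotransporter, was at 287 and 242 CPM in nonclassical monocytes, against 20.9 and 18.1 CPM in classical monocytes (log2 3.77 ± 0.29). Dusp16, a phosphatase of stress-activated kinases, was at 279 and 229 CPM in nonclassical monocytes, against 19.8 and 25.5 CPM in classical monocytes. All of these passed with each sum left out. Smpdl3b, a membrane-bound phosphodiesterase, was at 154 and 152 CPM in nonclassical monocytes, against 20.7 and 25.5 CPM in classical monocytes (log2 2.75 ± 0.24). Tgm2, the crosslinking enzyme transglutaminase 2, was at 360 and 298 CPM in nonclassical monocytes, against 55.6 and 52.8 CPM in classical monocytes (log2 2.61 ± 0.55, adjusted p = 0.0244), and it lost its call with each of the 4 sums left out (adjusted p of 0.0605 to 0.197) and among cells of at least 1000 UMIs (0.0675).

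**Figure D4:**
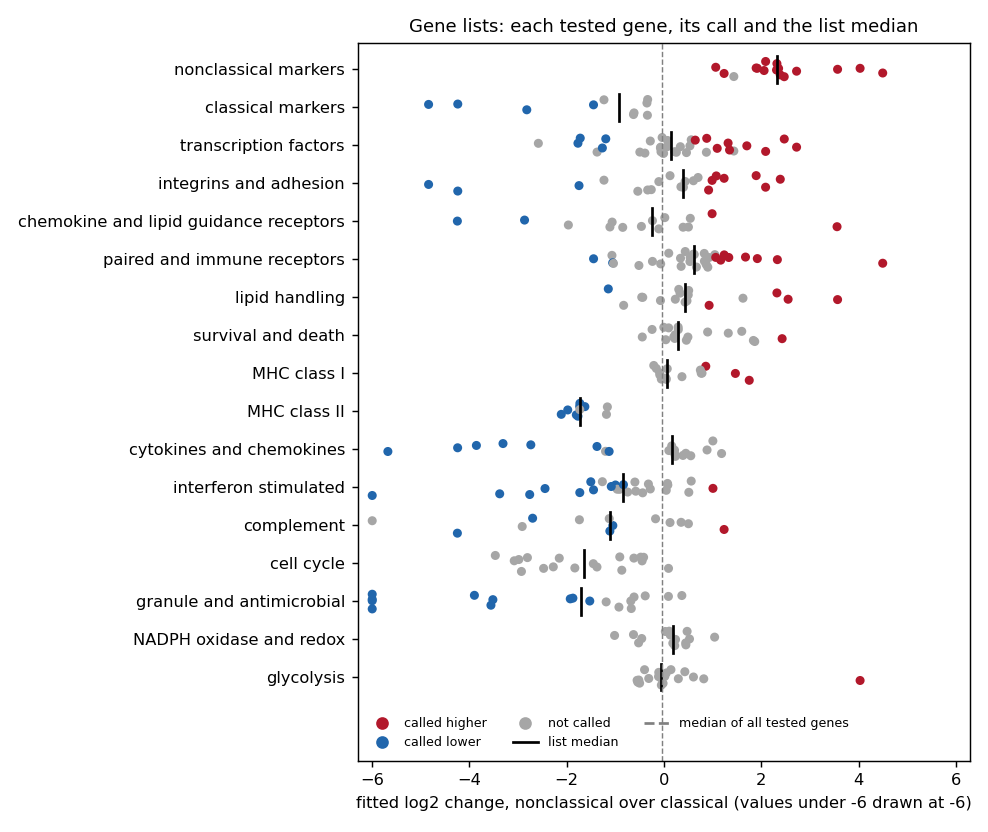
Fitted log2 change, nonclassical over classical monocytes (horizontal axis), for each tested gene of the lists (1 line per list; red points are called higher, blue called lower and grey not called, black bars are list medians, and the dashed line is the median of all tested genes). The nonclassical marker list lies to the right with a median of 2.32, and the medians for MHC class II and for granule and antimicrobial genes lie to the left, at -1.73 and -1.70.

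The marker lists gave the background to these groups. Of 16 nonclassical markers outside the rule, 15 were called higher and Nr4a1 was not, with a median of 2.32. Since the rule selects cells of this class, that count describes the choice. Of 10 classical markers, Vcan, Fn1, Ms4a4c and Cd177 were lower. Fn1, which encodes fibronectin, stood at 50.8 and 27.8 CPM in nonclassical monocytes, against 807 and 653 CPM in classical monocytes (log2 -4.24 ± 0.24, adjusted p = 7.61e-05 in edgeR). Vcan, a matrix proteoglycan, was at 1.21 and 1.46 CPM in nonclassical monocytes, against 28.1 and 51.0 CPM in classical monocytes. Plac8, usually counted with the classical markers, was not called, at 1613 and 1504 CPM in nonclassical monocytes, against 1988 and 1978 CPM in classical monocytes (log2 -0.34 ± 0.18, adjusted p = 0.315).

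MHC class II genes, which present peptides to CD4 T cells, were lower together: 7 of 10 tested were called lower, with a median log2 change of -1.73. H2-Ab1 stood at 1141 and 1407 CPM in nonclassical monocytes, against 3070 and 6469 CPM in classical monocytes (log2 -1.80 ± 0.29, adjusted p = 0.00778 in edgeR). H2-Eb1 (590 and 638 CPM in nonclassical monocytes, against 1976 and 3574 CPM in classical monocytes), H2-Aa, H2-DMa, H2-DMb1, H2-DMb2 and Ciita, the transactivator of the locus, were the others. Cd74, the invariant chain, was not called, at 3492 and 3334 CPM in nonclassical monocytes, against 5905 and 10517 CPM in classical monocytes. In the same cells dendritic cell markers were lower for 6 of 7 tested genes, H2-Ab1 among them: Xcr1 stood at 0 and 0.487 CPM in nonclassical monocytes, against 8.53 and 45.0 CPM in classical monocytes, and Cd209a at 22.4 and 31.2 CPM in nonclassical monocytes, against 73.1 and 185 CPM in classical monocytes. The classical gate had no exclusion for dendritic cells, and their part in the MHC class II difference was not tested. It had none for C1q macrophages either. Among classical monocytes with 3 or more UMIs of Treml4, Ace and Cx3cr1, H2-Ab1 stood at 3305 and 6285 CPM. In those that also met the members' other exclusions it stood at 1760 and 3530 CPM. Of the MHC class II calls, that of Ciita held with each sum left out. Of 15 MHC class I genes tested, 12 were not called and 3 were called higher (H2-K1, H2-Q6 and H2-Q7). The list's median was 0.07, beside -0.05 over all genes tested, and these calls did not hold with each sum left out. H2-K1 stood at 2659 and 2158 CPM in nonclassical monocytes, against 1346 and 1328 CPM in classical monocytes.

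Interferon-stimulated genes were lower for 10 of 25 tested and higher for 1, Ifitm1, with a median of -0.83. Ifi203 stood at 61.1 and 45.8 CPM in nonclassical monocytes, against 316 and 268 CPM in classical monocytes (log2 -2.45 ± 0.23, adjusted p = 0.000705 in edgeR). Ifit2, Ifit3, Mx1, Ifi44, Ifi205, Bst2, Stat2, Ms4a4c and Ly6a were the other lower ones. Ifi44 was at 0 UMIs in members, at least 5.07-fold lower than in classical monocytes with a floor of 3 UMIs over both pools. Ifi203 and Ms4a4c passed with each sum left out.

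Cytokines and chemokines were called for 7 of 19 tested, all lower, while the list's median was 0.16. The 7 were the monocyte attractant Ccl2, Ccl9, the interferon-induced Cxcl9 and Cxcl10, Cxcl16, the platelet and macrophage chemokine Pf4, and the B cell factor Tnfsf13b. Ccl9 stood at 258 and 229 CPM in nonclassical monocytes, against 633 and 638 CPM in classical monocytes (log2 -1.38 ± 0.19), and Cxcl16 at 6.65 and 4.39 CPM in nonclassical monocytes, against 48.8 and 115 CPM in classical monocytes. Il1b was not called, at 2996 and 4739 CPM in nonclassical monocytes and 1223 and 2837 CPM in classical monocytes. Of 13 complement genes, C3, Cfp, C3ar1 and Cd55 were lower and the complement receptor chain Itgax higher (median -1.11). Of 20 lysosomal genes, Ctsb was higher and Ctsc, Ctsh and Cd63 lower. Of the calls in these lists, only those of Ccl2, Cxcl16, Pf4 and C3ar1 held with each sum left out. With the members' other exclusions applied to classical monocytes, Pf4 lost its call, at a log2 change of -0.025 ± 0.87 (adjusted p = 0.997 in edgeR). Without progenitor, eosinophil and plasma cell RNA the log2 changes of Cd55 (1.31 ± 1.16) and Cd63 (1.20 ± 0.33) were positive. Neither was then called (adjusted p = 0.611 and 0.0723 in edgeR).

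Neutrophil granule and antimicrobial genes were lower for 10 of 18 tested, with a median of -1.70, and several of these rest on 1 pool. Ngp stood at 1378 and 20.5 CPM in nonclassical monocytes, against 8611 and 2457 CPM in classical monocytes (log2 -3.90 ± 0.90, adjusted p = 0.0335 in edgeR). Mpo was at 1.21 and 0 CPM in nonclassical monocytes, against 453 and 0.232 CPM in classical monocytes, and Prtn3 at 0.605 and 0 CPM in nonclassical monocytes, against 330 and 5.33 CPM in classical monocytes, so that their levels differed mostly in YO1. Ctsg was at 0 UMIs in members, at least 80.1-fold lower than in classical monocytes with the same floor. The neutrophil marker list summed to 21775 and 14162 CPM in nonclassical monocytes, against 51122 and 20928 CPM in classical monocytes, and without the cells that held neutrophil RNA to 6754 and 482 CPM in nonclassical monocytes, against 9904 and 479 CPM in classical monocytes. That list holds Cxcr2, Mmp9, Retnlg, Mmp8 and Stfa2l1, by which those cells were chosen, so the fall of its sum is partly set by the choice. With those cells left out, Ngp, Ltf, Camp, Lcn2, Ly6g, Wfdc21 and Prg2 lost their calls, with adjusted p from 0.4725 to 0.969 in edgeR. Prg2, an eosinophil granule gene, stood at 4.84 and 0.487 CPM in nonclassical monocytes, against 258 and 8.11 CPM in classical monocytes. These genes mark neutrophil precursors and eosinophils, which the classical gate did not exclude. An alternative chosen after the data were seen left out cells that held RNA of progenitors, eosinophils or plasma cells. Those cells were chosen by UMIs of Ngp, Camp, Ltf, Elane, Mpo, Prg2 and Jchain, and the members' exclusions were applied to classical monocytes. In that alternative 2 of the 18 were called lower. That count is partly set by the choice, since Ngp, Camp, Ltf, Elane and Mpo are among the 18.

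Of the other lower genes named by size, Gas7, a cytoskeletal regulator, stood at 15.1 and 10.2 CPM in nonclassical monocytes, against 137 and 146 CPM in classical monocytes (log2 -3.51 ± 0.34, adjusted p = 0.000762 in edgeR). Mgl2, a C-type lectin of dendritic cells and macrophages, was at 23.6 and 42.9 CPM in nonclassical monocytes, against 150 and 407 CPM in classical monocytes (log2 -2.99 ± 0.34). Retnla (1.21 and 0.975 CPM in nonclassical monocytes, against 61.8 and 602 CPM in classical monocytes), Pf4 (0 and 3.41 CPM in nonclassical monocytes, against 36.7 and 170 CPM in classical monocytes) and Fcnb (19.4 and 0.487 CPM in nonclassical monocytes, against 236 and 12.7 CPM in classical monocytes) were far apart between the pools of classical monocytes. Retnla and Pf4 lost their calls when classical monocytes had the same exclusions as the members (adjusted p of 0.130 and 0.997), and Fcnb when cells with progenitor RNA were left out as well (0.0951).

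Several lists gave no or few calls. None of 15 NADPH oxidase and redox genes was called by edgeR (4 higher and 2 lower at an unadjusted p under 0.05, and 1 higher and 1 lower by DESeq2), with a median of 0.18. None of 18 cell cycle genes was called by edgeR (0 higher and 9 lower at an unadjusted p under 0.05, and 0 by DESeq2), with a median of -1.64. Mki67, a marker of cycling cells, stood at 4.84 and 14.6 CPM in nonclassical monocytes, against 130 and 26.7 CPM in classical monocytes. Without cells that held neutrophil RNA, 7 of the 18 cell cycle genes were called lower, among them Mki67, at 9.63 and 1.20 CPM in nonclassical monocytes, against 116 and 22.3 CPM in classical monocytes. Although Ace defined the class, none of the 3 tested genes of the renin-angiotensin system was called by edgeR (1 higher, Lnpep, at an unadjusted p under 0.05), and Agt, Agtr1a, Agtr1b and Agtr2 were at 0 UMIs in members and in classical monocytes.

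Against C1q macrophages, another class with Csf1r, 686 genes (6.39%) were higher in nonclassical monocytes and 950 (8.84%) lower by the same edgeR fit. Of the 16 nonclassical markers, 14 were higher (median 2.47, beside 0.01 over all genes), and 7 of the 10 MHC class II genes were lower (median -2.63). S1pr5 (214 and 212 CPM in nonclassical monocytes, against 0 and 5.09 CPM in macrophages), Cd300e (444 and 389 CPM in nonclassical monocytes, against 11.8 and 15.9 CPM in macrophages) and Eno3 (355 and 204 CPM in nonclassical monocytes, against 18.6 and 12.7 CPM in macrophages) were again among the largest. Plac8 was at 1613 and 1504 CPM in nonclassical monocytes, against 42.2 and 52.8 CPM in macrophages (log2 5.01 ± 0.23, adjusted p = 3.15e-05 in edgeR). Ldlrad3, a membrane receptor of the LDL receptor family, was at 189 and 146 CPM in nonclassical monocytes, against 3.37 and 6.36 CPM in macrophages; Ly6i, Cyp2ab1 and Ceacam1 completed the named higher genes. The classes were chosen on C1q genes, and this comparison shares its nonclassical sums with that against classical monocytes.

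The 5 lower genes named by size against macrophages were near 0 in members. Vcam1, by which macrophages hold other cells, was at 0 and 0.487 CPM in nonclassical monocytes, against 681 and 277 CPM in macrophages. Cxcl13 was at 0.605 and 0.487 CPM in nonclassical monocytes, against 384 and 385 CPM in macrophages, and Mmp13, Fcna and Cd5l at no more than 0.605 CPM in either pool of nonclassical monocytes. Other lower genes were not: H2-Ab1 stood at 1141 and 1407 CPM in nonclassical monocytes, against 11660 and 14003 CPM in macrophages. Without 1 of the 4 sums, 282 to 399 genes were higher, fewest without YO2 macrophages (282, against 326 without YO1 members, 335 without YO2 members and 399 without YO1 macrophages), and 396 to 536 lower (396 without YO2 members, 499 without YO1 members, 501 without YO2 macrophages, 536 without YO1 macrophages); all 13 genes named by size passed in each of these fits.

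Members differed among themselves along the classical genes, which the rule bounded but did not fix. Of the members, 418 (67.4%) in YO1 and 387 (70.2%) in YO2 had 0 UMIs of Ly6c2, F13a1 and Ccr2. Across members with 0, with 1 or 2 and with 3 or 4 such UMIs, Cd300e stood at 580, 273 and 128 CPM in YO1 and at 490, 231 and 130 CPM in YO2. Eno3 stood at 449, 245 and 117 CPM in YO1 and at 234, 167 and 106 CPM in YO2, and Fcgr4 at 967, 733 and 566 CPM and at 898, 665 and 552 CPM in the same order. Each of these was lower at each step in both pools, while the median depth per cell was 2242 and 3020 UMIs in the first bin and 3282 and 4119 UMIs in the last. Fn1 stood at 16.9, 85.2 and 150 CPM in YO1 and at 14.3, 21.6 and 130 CPM in YO2, and H2-Ab1 at 584, 1502 and 3304 CPM and at 973, 1812 and 3199 CPM. Nr4a1 showed no such order in YO2, at 2318, 2445 and 2190 CPM, and stood at 1958, 1975 and 1272 CPM in YO1. These are levels of single libraries, given as a description.

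**Figure D5:**
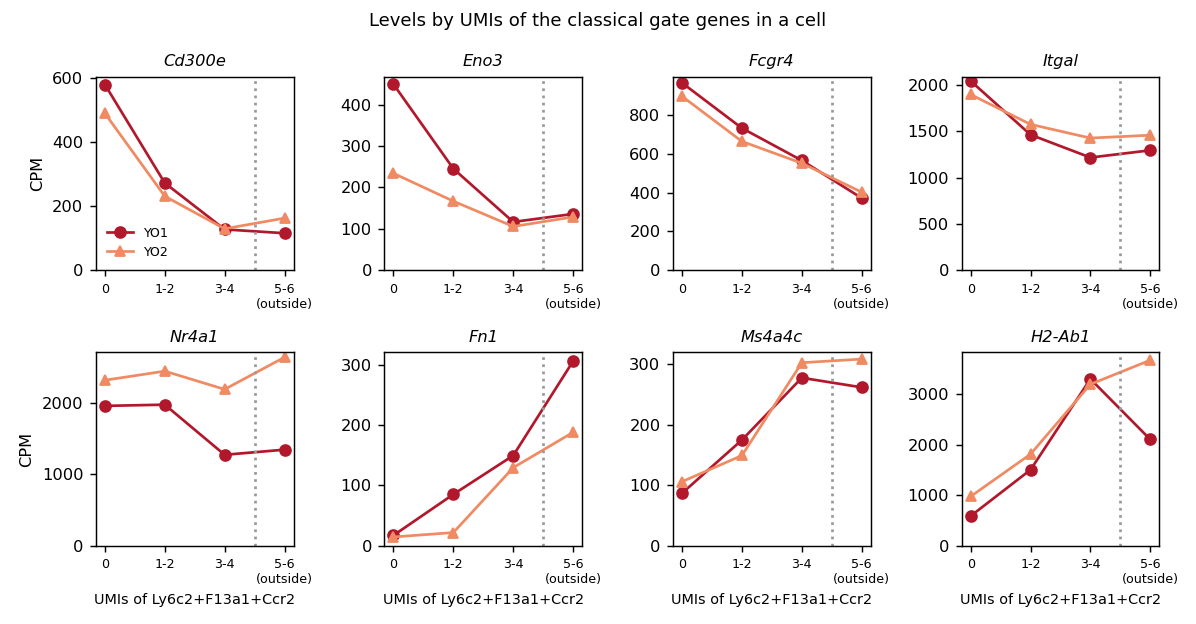
CPM (vertical axes, from 0) of genes in cells that met the Treml4, Ace and Cx3cr1 gate, by UMIs of Ly6c2, F13a1 and Ccr2 in a cell (horizontal axis), 1 line per pool; the dotted line is the edge of the class. Within the class, Cd300e, Eno3 and Fcgr4 are lower and Fn1 and H2-Ab1 higher towards the edge in both pools.

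The pools were compared within the class by the ratio of CPM, YO1 over YO2, with a pseudocount of 1 CPM and a 95% counting interval, since each pool is 1 library and no test was possible. Round, cartridge and the mix of tissues, ages and animals differ between the pools and cannot be told apart. Of 4912 genes with at least 100 UMIs, 9 (0.183%) were at least 2-fold higher in YO1 and 43 (0.875%) at least 2-fold lower, with intervals that leave out 1. Higher in YO1 were genes of neutrophil granules: Camp at 514 CPM in YO1 and 4.87 CPM in YO2, Ngp at 1378 and 20.5 CPM, Ltf at 346 and 9.26 CPM and Lcn2 at 896 and 285 CPM. Ly6g, the gene of the surface antigen of the sort, was higher too, at 44.7 and 16.1 CPM. Camp and Ngp were also higher in the neutrophils of YO1 (Camp 7930 CPM in YO1 and 1974 CPM in YO2, Ngp 24593 and 7718 CPM), and 53.6% of the Ngp UMIs of YO1 members lay in 5 cells. Adpgk and Shkbp1 were also among the higher genes.

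Lower in YO1 were metallothioneins and genes known from alveolar and lipid-laden macrophages. Mt1, a metallothionein, stood at 23.6 CPM in YO1 and 461 CPM in YO2 (ratio 0.0532), Mt2 at 6.05 and 142 CPM, and reads of these similar genes can be split between them. Ctsk, a cathepsin, stood at 5.44 and 73.1 CPM, Gpnmb at 9.07 and 62.4 CPM, Ear1 at 8.47 and 58.0 CPM, Lpl, which encodes lipoprotein lipase, at 76.8 and 315 CPM, Atp6v0d2 at 41.1 and 148 CPM and Car4 at 11.5 and 42.9 CPM. A few cells held this RNA: 5 or more UMIs of Ctsk, Gpnmb, Ear1, Fabp1, Marco, Mt1 and Mt2 were in 5 of 620 members of YO1 (0.807%) and 20 of 551 of YO2 (3.63%), a choice made after the data were seen. They had 6845 and 9764 median UMIs, against 2410 and 3302 UMIs in the other members, with Ace at 429 and 291 CPM, against 1710 and 1614 CPM in the other members. Without them 12 genes were at least 2-fold higher in YO1 and 22 lower, and Lpl turned round, at a ratio of 3.996. Atp6v0d2 turned round with the gate raised to 5 UMIs, at a log2 ratio of 0.75.

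Among those 22, the plasma cell genes Igha, Igkc and Jchain had ratios of 0.0568, 0.0748 and 0.0900. The others had ratios of 0.311 or more, lowest for the chemokine gene Ccl3 (0.311), Ptgs2 (0.343), which encodes cyclooxygenase-2, and Rgs1 (0.3485). Of the 16 immediate early genes, 14 had at least 100 UMIs in the members, and of these Egr1 was at least 2-fold lower in YO1 (ratio 0.4135). The ratio was under 1 for 11 of the 14 and over 1 for 3, with a median of 0.716. Of the 16 nonclassical markers, 0 differed by 2-fold between the pools, with ratios from 0.681 (Fabp4) to 1.735 (Eno3) and a median of 1.04. Eno3 was at 355 CPM in YO1 and 204 CPM in YO2, Ceacam1 at 403 and 279 CPM, Cd300e at 444 and 389 CPM and Itgal at 1787 and 1769 CPM.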

How the data were processed

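UMI counts per gene and cell barcode were made by the authors and deposited as whole-number counts in 1 matrix of 21995 genes and 38072 barcodes, with the pool in the barcode name. The mm10 build is named per the submitters' processing notes. How reads were aligned, annotated and assigned to cells is not given in the sources used. Libraries of sample tags and antibody oligos were not used. YO1 had 20352 barcodes and 39713846 UMIs, YO2 17720 and 41839786.

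Barcodes of fewer than 200 UMIs or 100 genes, or with 20% or more of their UMIs from mitochondrial genes, were left out (847 in YO1, 505 in YO2). UMIs were summed per class and pool (neutrophils: at least 10 UMIs of their gate genes). The 8 sums of 4 classes were fitted with edgeR 4.0.16 in R 4.3.3 (quasi-likelihood, TMM, filterByExpr, class and pool as terms, two-sided, Benjamini-Hochberg at 0.05); the fit left 3 residual degrees of freedom. The pool is the replicate number of the labels and marks a shared round and cartridge; over genes of at least 50 CPM the log2 ratio of YO1 to YO2 in nonclassical monocytes correlated with that in classical monocytes (r = 0.52), macrophages (0.33) and neutrophils (0.42). DESeq2 1.42.0, other scalings, filters, gates and left-out sums were alternatives. The fit was tested on simulated data.

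By size, the text names the 15 highest and 12 lowest log2 changes against classical monocytes and the 8 highest and 5 lowest against macrophages, among called genes of the same direction in both pools and at least 50 CPM on average; between pools, the 8 highest and 8 lowest ratios. Gene models, ribosomal, mitochondrially encoded, immunoglobulin and gate genes were skipped; the genes given between pools without macrophage RNA, Notch1, Notch2 and other uncalled list genes were picked after their values were seen. List genes serve as examples by role, and some genes that these rules name are not reported here. The members and lists were chosen with earlier results of these data known. Gene positions are those of GRCm38, and promoter windows come from RefSeq on GRCm38.p6. Tables were made with pandas 2.3.3, numpy 2.4.6 and scipy 1.17.1 in Python 3.11.15, and figures with matplotlib 3.10.9. All intervals cover counting error only.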

Additional observations from a re-analysis of the deposited data

Results flagged for a closer look

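Among the list genes and the genes named by size, the only ones searched, 9 had opposite directions in the pools. For these the difference between nonclassical and classical monocytes passed a fixed small fold in each pool, with a counting interval that leaves out equality. The difference between the pools was not tested, and the 9 are not a count over all genes tested. Log2 changes are given for YO1 and then YO2. Chil3, a chitinase-like protein of monocytes and alveolar macrophages, had -1.88 and 0.40, with 554 and 1129 CPM in nonclassical monocytes, against 2036 and 854 CPM in classical monocytes; without the members that held macrophage RNA nonclassical monocytes had 445 and 94.7 CPM. Lpl had -1.55 and 0.33, Ear1 -0.83 and 1.84, and Ctsk -0.93 and 2.99. Without those members Lpl stood at 52.4 and 12.4 CPM in nonclassical monocytes, against 227 and 251 CPM in classical monocytes. Ear1 then stood at 3.08 and 4.84 CPM in nonclassical monocytes, against 15.8 and 15.5 CPM in classical monocytes. Ctsk stood at 1.85 and 2.69 CPM in nonclassical monocytes, against 11.3 and 8.34 CPM in classical monocytes. Classical monocytes with such RNA were not left out, and Ear1 and Ctsk are among the genes that chose the members left out. The lower values without those members are therefore partly set by that choice. Rrm2, a gene of DNA synthesis, had -3.89 and 0.88, with 4.23 and 13.7 CPM in nonclassical monocytes, against 76.7 and 6.95 CPM in classical monocytes.

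The other 4 were of small size. Fpr2, a formyl peptide receptor, had -0.38 and 0.38. S1pr4, a sphingosine-1-phosphate receptor, had -0.67 and 0.51. Cd14, a lipopolysaccharide co-receptor, had 0.43 and -0.34, and the glycolytic gene Tpi1 had -0.60 and 0.44.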

How the results depend on the processing

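Shares of members moved in every alternative: 2.36% in YO1 and 2.60% in YO2 with a gate of 5 UMIs, 3.594% and 3.602% with 2 UMIs, and 4.75% and 3.53% among cells of at least 1000 UMIs. After thinning to 500 UMIs the shares were 2.51% and 2.09%. There the gate was lowered to at least 1 UMI of Treml4, Ace and Cx3cr1 together, with the other limits kept, so depth and gate changed at once. Against classical monocytes, 321 genes were higher and 461 lower; the counts were 597 and 927 with no filter on low counts, 82 and 82 with no replicate block, 934 and 926 with only the 4 sums compared, 159 and 288 with at least 1000 UMIs, and 498 and 700 without cells above the 95th percentile of UMIs. Lower genes numbered 281 without cells with neutrophil RNA, 278 without progenitor, eosinophil and plasma cell RNA and 728 without members with macrophage RNA. Leaving out 1 sum gave 54 to 117 higher and 112 to 202 lower. Against macrophages, higher genes numbered 429 with no replicate block (686 with it) and 1043 with only 4 sums, and leaving out 1 sum gave 282 to 399 higher and 396 to 536 lower. Genes lower in YO1 than in YO2 numbered 23 with a gate of 5 UMIs and 22 without macrophage RNA. Size factors, total UMIs and DESeq2 kept both counts against classical monocytes within 1.5 times (359 and 433, 360 and 441, 394 and 417), and scalings moved the median of all genes by under 0.1. With DESeq2, Mpo (adjusted p 0.1255) and Camp (0.0530) lost their calls. Without progenitor, eosinophil and plasma cell RNA the log2 change reversed for Prg2 (0.034), Ngp (0.28), Ltf (0.44), Camp (0.28), Cd5l (3.48), Ly6g (0.38), Mmp8 (0.0804), Cd63 (1.20), Cd55 (1.31), Lcn2 (0.90) and Wfdc21 (0.95); without neutrophil RNA for Cd5l (0.25) and Lcn2 (0.12); with the members' exclusions on classical monocytes for Cd5l (1.06). None of these reversed changes was called, with adjusted p of 0.0723 (Cd63) or more in edgeR. Prg2, Ngp, Ltf and Camp helped to define the progenitor, eosinophil and plasma cell RNA, so their reversals are partly set by that choice. Between pools, Lpl reversed without macrophage RNA (1.999) and Atp6v0d2 with the gate of 5 UMIs (0.75). The cause was not tested. Depth limits genes under about 3 UMIs per pool.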
